A study of Homo sapiens with 4 samples.

Results

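MicroRNA host genes are the long transcripts from whose introns or exons microRNAs are cut, and GENCODE 44 names 84 of them with a symbol that starts with MIR and ends with HG. The members described here are the 83 of these genes that have a row among the 58735 genes of the expression table. The rule uses the symbol and no measured value, though it was set with earlier results of these data known. Of the 83, 82 are annotated as long noncoding RNA genes and 1, MIR3171HG, as a transcribed processed pseudogene. RNA sequencing was done on cells labelled NB4, a human acute promyelocytic leukemia line with the PML-RARA fusion, in 2 groups of 2 libraries. The control group had no GNE987, and the GNE987 group was treated with GNE987, a bifunctional molecule that recruits an E3 ubiquitin ligase to BET bromodomain proteins so that they are degraded, at 25 nM for 24 h per the study's legend for this experiment. No other genotype or agent is given for either group. The labels do not say whether the 2 libraries of a group came from separate cultures, so p-values here measure only the spread between these libraries, which may be technical.

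A primary microRNA transcript is cut in the nucleus by DROSHA and DGCR8 into a hairpin, which is exported, cut again by DICER1 and loaded as a single strand into an Argonaute protein. The strand then pairs with messenger RNAs mainly through its seed, the bases 2 to 8 from its 5′ end, so microRNAs that share a seed tend to share targets. Several host genes carry names known from blood: miR-223 is a hallmark of granulocytes and monocytes, miR-142 is made across blood cells, miR-146a is part of the feedback on NF-κB signalling, and the miR-17-92 cluster of MIR17HG is a MYC target with oncogenic activity in lymphoma. The libraries measured the long transcripts. They say nothing direct about the mature microRNAs, which were not measured here.

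The mature sequences below belong to the host genes on which the results turn. RefSeq held 121 of the 130 microRNA precursors that lie inside the host genes on the same strand, and the seed is in capitals. The first set comes from host genes that were lower with GNE987, and the 6 microRNAs of MIR17HG include 2 pairs with a common seed (miR-17-5p with miR-20a-5p, and miR-19a-3p with miR-19b-3p).
miR-223-3p (MIR223HG): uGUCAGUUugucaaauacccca
miR-142-3p (MIR142HG): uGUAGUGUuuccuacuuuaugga
miR-142-5p (MIR142HG): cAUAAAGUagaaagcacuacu
miR-17-5p (MIR17HG): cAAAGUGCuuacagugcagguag
miR-20a-5p (MIR17HG): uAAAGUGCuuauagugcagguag
miR-18a-5p (MIR17HG): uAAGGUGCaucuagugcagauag
miR-19a-3p (MIR17HG): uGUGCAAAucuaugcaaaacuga
miR-19b-3p (MIR17HG): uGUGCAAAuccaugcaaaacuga
miR-92a-3p (MIR17HG): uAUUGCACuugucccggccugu

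The next set comes from host genes that were higher with GNE987. None of these 6 shares a seed with a microRNA of the first set, and miR-200c-3p and miR-141-3p, both from MIR200CHG, differ in their seeds.
miR-22-3p (MIR22HG): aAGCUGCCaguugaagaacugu
miR-146a-5p (MIR3142HG): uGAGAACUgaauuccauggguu
miR-7-5p (MIR7-3HG): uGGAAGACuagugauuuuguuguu
miR-200c-3p (MIR200CHG): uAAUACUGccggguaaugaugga
miR-141-3p (MIR200CHG): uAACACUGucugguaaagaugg
let-7i-5p (MIRLET7IHG): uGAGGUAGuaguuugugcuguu

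The let-7 seed GAGGUAG is carried by 10 precursors in 7 of the host genes. Of these 7, MIRLET7IHG was higher with GNE987, MIRLET7A1HG did not pass the thresholds, and MIR100HG, MIR99AHG, MIRLET7BHG, MIR4458HG and MIR4500HG were too low to test.

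All values are FPKM, sequenced fragments scaled to transcript length and to library size, as deposited. A gene was tested where its mean over the 4 libraries was at least 0.5 FPKM, by limma on log2(FPKM + 0.1), and was called at an unadjusted p under 0.05 together with a fold over 2 or under 0.5, the thresholds of the study. The fold for a call is that of the limma fit. The fold printed for MIR142HG, MIR17HG and MIR4453HG is the ratio of mean FPKM, a different measure. Of the 83 host genes, 30 were at 0 in all 4 libraries, 33 were above 0 but under the minimum, and 20 were tested. The lowest mean inside the minimum was 0.516 FPKM, and the highest outside it was 0.480 FPKM. Since 2 of the 20 passed the minimum through the control group alone and 6 through the GNE987 group alone, a count over the 20 is not a count over all host genes.

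Of the 20 tested host genes, 5 were higher with GNE987, against 33.6% of all 16668 tested genes, and 6 were lower, against 24.9% of all tested genes; 9 were not called. As shares of the 20 these are 25% higher and 30% lower, both near the background. Among the other 2417 tested long noncoding RNA genes the shares were 51.5% higher and 13.7% lower. The median log2 fold change of the 20 was 0.14, beside 0.17 over all tested genes and 1.38 over the other long noncoding RNA genes. With Benjamini-Hochberg adjusted p-values over all tested genes in place of unadjusted ones, the same 5 and 6 host genes were called, against 33.2% and 24.6% of all genes. Among the 12 host genes whose mean passed the minimum in both groups, 1 was higher, 4 were lower and 7 were not called. The shares of all genes passing the minimum in both groups were not counted, so no lean can be read from these 12. The summed FPKM of the 83 host genes was 77.4 and 71.3 in controls and 49.6 and 49.7 with GNE987, and this gap rests on MIR223HG: without it the sums were 54.6 and 49.5 against 49.6 and 49.7, and the groups overlapped.

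**Figure D1:**
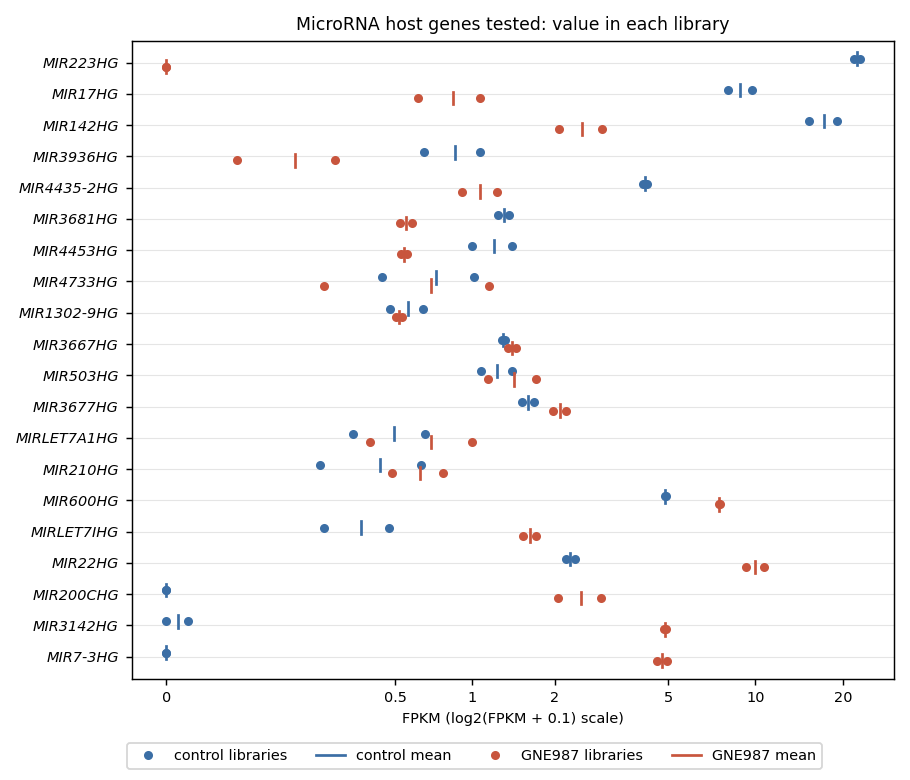
FPKM of the 20 tested host genes in each of the 4 libraries, on a log2(FPKM + 0.1) axis, with a point for each library and a bar at each group's mean. The 6 host genes called lower are in the top rows and the 5 called higher in the bottom rows; MIR223HG was at 0 in both GNE987 libraries, and MIR7-3HG and MIR200CHG were at 0 in both controls.

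The values carry a scaling between the libraries, and it sets where 0 lies on the fold scale. The whole reads behind each value, worked out from the spacing of low values, summed to at least 16721988 and 16528984 in controls and 10833316 and 11282246 with GNE987. Dividing by these totals in place of the deposited scaling moved the median log2 fold change of all genes by -0.77, quantile normalization moved it by -0.42, and scaling to GAPDH, which was at 398 and 432 FPKM in controls and at 1501 and 1499 FPKM with GNE987, moved it by -1.77. All 11 called host genes kept their sign under these 3 scalings. Since each of the 3 moved the median down, this was a check only on the 5 host genes called higher. Of those, MIRLET7IHG fell to a log2 fold change of 0.34 and MIR22HG to 0.27 with GAPDH. Markers of the labelled cell type were low: 10 of 12 promyelocyte and granulocyte markers were under 1 FPKM in each control, with 3 at 0 (ELANE and CTSG in both), and their summed FPKM was 11.1 and 9.72 in controls and 89.5 and 87.9 with GNE987. The 12 erythroid markers summed to 699 and 702 FPKM in controls and to 968 and 847 with GNE987, with 5 of them higher and 5 lower. The part of these shifts in the host gene values was not tested. In bulk RNA, fewer cells of a type and less RNA per cell cannot be told apart.

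**Figure D2:**
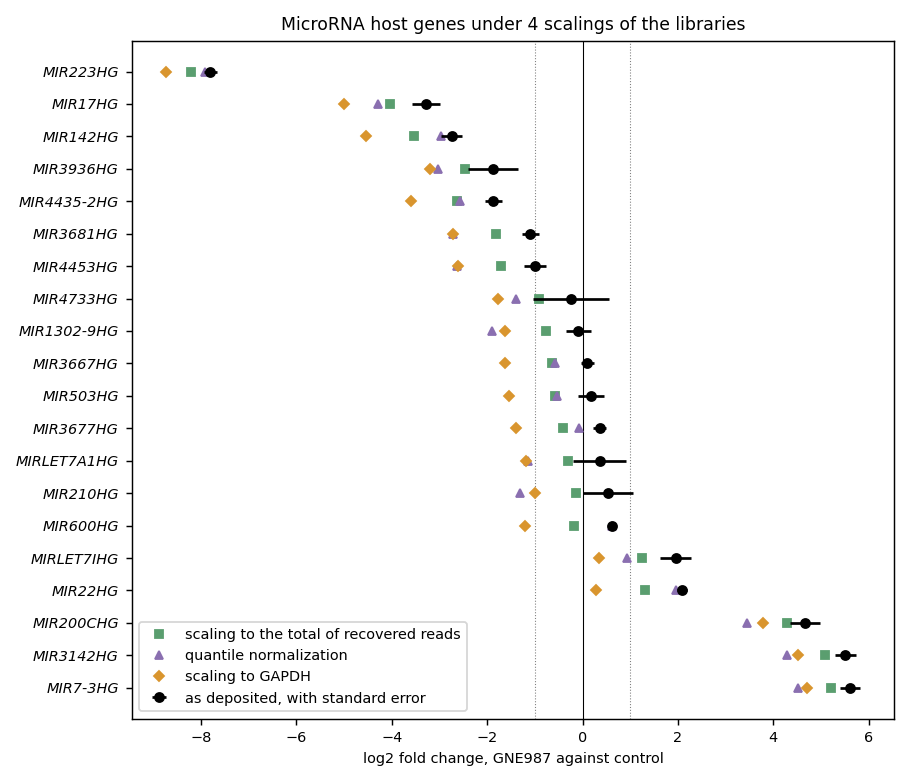
The log2 fold change, GNE987 against control, of the 20 tested host genes as deposited (black, with the standard error) and under 3 other scalings of the libraries. Dotted lines mark folds of 2 and 0.5. The 11 called host genes stayed on their side of 0 under each scaling, while MIR3667HG, MIR503HG, MIR3677HG, MIRLET7A1HG and MIR210HG crossed 0 under all 3 and MIR600HG under scaling to GAPDH and to the read total. Each of the 3 lowers the median of all genes, so of the called host genes only the higher ones were exposed to a change of sign.

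MIR223HG, MIR17HG and MIR142HG, the host genes of miR-223, miR-17-92 and miR-142, were the 3 with the largest decreases among the tested host genes. MIR3142HG, the host gene of miR-146a, also named above among those known from blood, was higher. MIR223HG (ENSG00000274536, X, 66015414 to 66020426, hg38) was at 22.8 and 21.8 FPKM in controls, the highest level of any tested host gene there, and at 0 in both GNE987 libraries. These are at least 951 and 875 reads against no read. Against a floor of 3 reads in each GNE987 library, which is 0.192 FPKM, the transcript was at least 116-fold lower, and its log2 fold change of -7.81 (SE 0.13, n = 2 per group, adjusted p = 9.97e-05, limma) depends on the pseudocount. MIR223HG passed the minimum through the controls alone, and its GNE987 values had no spread, so the p-value adds no support beyond the reads. No read fell in the row of the MIR223 precursor itself in any library. Of the 12 promyelocyte and granulocyte markers 4 were higher in the same libraries, 1 was lower, 2 were not called and 5 were under the minimum, and their part in the value of MIR223HG was not tested. Among the 4 higher, MPO was at 0.0246 and 0 FPKM in controls and 11.8 and 11.3 with GNE987, and ITGAM at 0 and 0.0318 against 56.8 and 58.0. The lower marker was CD33, at 0.836 and 0.915 FPKM in controls and 0.460 and 0.284 with GNE987, and SPI1 was at 7.52 and 5.68 against 4.80 and 3.23 and was not called.

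MIR142HG (ENSG00000265206, 17, 58330879 to 58332523) was at 19.0 and 15.3 FPKM in controls and at 2.06 and 2.93 with GNE987, a fold of 0.146 and a log2 fold change of -2.74 (SE 0.22, adjusted p = 0.00098). MIR17HG (ENSG00000215417, 13, 91347686 to 91397592) was at 9.73 and 8.03 FPKM in controls and at 0.617 and 1.07 with GNE987, a fold of 0.0950 and a log2 fold change of -3.29 (SE 0.29, adjusted p = 0.0013). The groups did not overlap for either gene, and the gap between them was larger than the spread within either group. Without each library in turn the log2 fold changes ranged from -2.99 to -2.50 for MIR142HG and from -3.64 to -2.93 for MIR17HG. In such a fit 1 group has a single library, which is assumed to vary like the other group.

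MIR4435-2HG (ENSG00000172965, 2, 111006015 to 111523376), the human counterpart of mouse Morrbid, a long noncoding RNA that restrains the pro-apoptotic gene Bcl2l11 in short-lived myeloid cells, was at 4.24 and 4.08 FPKM in controls and at 0.913 and 1.23 with GNE987. Its log2 fold change was -1.88 (SE 0.18, adjusted p = 0.0015). It has a near-identical copy on the same chromosome, CYTOR, chosen here after its values were seen, at 2.56 and 2.27 FPKM in controls and 0.588 and 0.615 with GNE987 (log2 fold change -1.84), and reads of the 2 copies may have been split between them. Both copies were lower with GNE987.

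MIR3681HG and MIR3936HG, which hold microRNAs of no well-known role in blood, were called lower with less margin. MIR3681HG was at 1.24 and 1.36 FPKM in controls and at 0.586 and 0.526 with GNE987 (log2 fold change -1.10, SE 0.18, adjusted p = 0.0072). Without control replicate 2 its log2 fold change was -1.04 with an unadjusted p of 0.052 in limma, and it was not called. MIR3936HG was at 0.653 and 1.06 FPKM in controls and at 0.274 and 0.0741 with GNE987 (log2 fold change -1.88, SE 0.53, adjusted p = 0.034), on 46 and 72 reads against 7 and 2. MIR3936HG passed the minimum through the controls alone, where it was higher, so this p-value in limma is no separate support. It lost its call in limma without control replicate 1 (log2 fold change -2.19, unadjusted p = 0.069), without control replicate 2 (-1.56, unadjusted p = 0.13) and without GNE987 replicate 2 (-1.33, unadjusted p = 0.11).

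Among the host genes that were higher, 3 had no read or a single read in controls. MIR3142HG (ENSG00000253522, 5, 160438594 to 160487426), which holds miR-146a, was at 0 and 0.0190 FPKM in controls and at 4.83 and 4.91 with GNE987. This rests on 1 read in the 2 control libraries together against 96 and 103 with GNE987, a ratio of the pooled reads, scaled between the libraries, of 523 with an exact 95% counting interval from 92.7 to 20749. MIR7-3HG (ENSG00000176840, 19, 4769031 to 4785077), known from the pituitary and other neuroendocrine tissue, was at 0 in both controls and at 4.58 and 4.94 FPKM with GNE987, on 43 and 49 reads, at least 40.2-fold higher against a floor of 3 reads per control library. MIR200CHG (ENSG00000257084, 12, 6963226 to 6964447), whose miR-200c and miR-141 repress ZEB1 and ZEB2 and keep cells epithelial, was at 0 in both controls and at 2.05 and 2.91 FPKM with GNE987. Its FPKM rests on 6 and 9 reads over a short transcript, at least 6.53-fold higher against the same floor. The log2 fold changes of the 3 in limma were 5.51, 5.60 and 4.67 (adjusted p = 0.00024, 0.00022 and 0.00064), and their size depends on the pseudocount. All 3 passed the minimum through the GNE987 group alone, and their control values had little or no spread once the pseudocount was added. The p-values therefore add no support beyond the reads.

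MIR22HG (ENSG00000186594, 17, 1711447 to 1717174), whose microRNA miR-22 is broadly expressed, was at 2.18 and 2.36 FPKM in controls and at 10.7 and 9.26 with GNE987. The groups did not overlap, and the log2 fold change was 2.08 (SE 0.11, n = 2 per group, adjusted p = 0.00040). MIR22HG was the only host gene called higher that passed the minimum in both groups. Scaled to GAPDH its log2 fold change was 0.27 and it was not called.

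MIRLET7IHG (ENSG00000257354, 12, 62602752 to 62622213) was at 0.475 and 0.244 FPKM in controls and at 1.71 and 1.54 with GNE987, on 95 and 47 reads against 124 and 118, so the groups overlapped neither in FPKM nor in reads. MIRLET7IHG passed the minimum through the GNE987 group alone, where it was higher, so its p-value in limma is no separate support. Its log2 fold change was 1.95 (SE 0.33, adjusted p = 0.0075). Without GNE987 replicate 1 it was 1.88 (unadjusted p = 0.080 in limma) and without GNE987 replicate 2 it was 2.02 (unadjusted p = 0.071), both without a call. It was 0.34 after scaling to GAPDH and 0.93 after quantile normalization, also without a call.

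The other let-7 host gene that was tested, MIRLET7A1HG, holds let-7a-1, let-7f-1 and let-7d. It was at 0.333 and 0.662 FPKM in controls and at 1.00 and 0.395 with GNE987, so the groups overlapped. Its log2 fold change was 0.36 (SE 0.55, adjusted p = 0.58), and its sign turned without control replicate 1 (-0.046) and without GNE987 replicate 1 (-0.21) as well as under the 3 other scalings. At 5 to 21 reads per library the depth sets no narrow limit on its change.

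The remaining host genes did not pass both thresholds. MIR600HG was at 4.86 and 4.93 FPKM in controls and at 7.5 and 7.54 with GNE987, groups that did not overlap, with a log2 fold change of 0.61 (SE 0.06, adjusted p = 0.0020) that was under the fold threshold and turned to -0.18 with the read total and -1.21 with GAPDH as the scale. Relative to the median of all genes MIR600HG lay 0.44 above it as deposited, 0.41 above it with the read total and 0.38 above it with GAPDH. MIR4453HG was at 0.999 and 1.40 FPKM in controls and at 0.558 and 0.529 with GNE987. Its log2 fold change of -1.0 (SE 0.24, adjusted p = 0.022), taken by limma on log2(FPKM + 0.1), fell just short of the fold threshold. MIR4453HG had a fold of 0.453 in mean FPKM. It was called lower in limma without control replicate 1 (log2 fold change -1.22, unadjusted p = 0.034), with the read total (-1.70), quantile normalization (-2.63) or GAPDH (-2.61) as the scale, with a pseudocount of 0.01 (-1.11) and in limma-voom on the recovered reads (-1.08).

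MIR210HG, whose miR-210 is a well-known hypoxia-induced microRNA, was at 0.636 and 0.234 FPKM in controls and at 0.773 and 0.488 with GNE987 (log2 fold change 0.53, SE 0.52). MIR503HG, which lies in a cluster with miR-503 and miR-424, was at 1.40 and 1.08 FPKM in controls and at 1.71 and 1.15 with GNE987 (log2 fold change 0.18, SE 0.27). The groups of both genes overlapped. For MIR4733HG (-0.24), MIR1302-9HG (-0.09), MIR3667HG (0.10) and MIR3677HG (0.36) the log2 fold changes had standard errors between 0.13 and 0.80 and adjusted p-values between 0.074 and 0.79. The groups of MIR4733HG and MIR1302-9HG overlapped, and those of MIR3667HG and MIR3677HG did not, which with 2 libraries per group is a weak distinction. The share of all tested genes without overlap was not counted.

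Among the 33 host genes under the minimum, 19 had reads in both groups, 4 in controls alone and 10 in the GNE987 libraries alone, and the highest value in any library was 1.34 FPKM. MIR23AHG, the host of the miR-23a, miR-27a and miR-24 cluster, had 181 and 160 reads in controls and 47 and 42 with GNE987, over a long transcript, which is 0.413 and 0.380 FPKM against 0.295 and 0.250. MIR29B2CHG, which holds miR-29b and miR-29c, had 6 reads in each control and 39 and 50 with GNE987 (0.0159 and 0.0165 FPKM against 0.284 and 0.345). MIR130AHG had no read in controls and 11 and 14 with GNE987, at least 10.9-fold higher against a floor of 3 reads per control library.

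The values of the next 4 were also low. MIR3171HG had 36 and 26 reads in controls and 1 and 3 with GNE987, MIR1915HG 35 and 55 against 3 and 4, and MIR3150BHG 10 and 13 against none. MIR193BHG had 29 and 23 reads in controls and 15 and 27 with GNE987. MIR155HG, the host of miR-155 of activated B and T cells, had 2 reads and 1 read in controls and none with GNE987, which is 0.0543 and 0.0283 FPKM against 0, so no difference was detectable at this depth. When all genes above 0 were tested, 8 more host genes passed the thresholds, which made 9 higher and 10 lower of the 53 above 0, where 26.6% of all 32895 genes above 0 were higher and 15.6% lower. Among the 8, MIR130AHG, MIR194-2HG, MIR29B2CHG and MIR3659HG were higher, and MIR1915HG, MIR3150BHG, MIR3171HG and MIR548XHG were lower. Of these, MIR194-2HG had 2 reads and 1 read against 13 and 8, MIR3659HG no read against 4 and 1, and MIR548XHG 7 and 3 against none. The host genes of miR-34a (MIR34AHG), of let-7a-2 (MIR100HG) and of miR-181a-1 (MIR181A1HG) were among the 30 at 0 in every library.

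The short microRNA precursors have rows of their own. Of the 130 rows inside the host genes, 108 were at 0 in all libraries, 22 were above 0 and 10 were tested, and no row had more than 19 reads in a library. MIR3936, inside MIR3936HG, was called lower, at 3.16 and 4.11 FPKM on 8 and 10 reads in controls and at 0 with GNE987. MIR210, inside MIR210HG, was called higher, at 0 in controls and at 3.26 and 1.03 FPKM on 3 reads and 1 read with GNE987. Each of these called rows passed the minimum through 1 group alone, since the other group was at 0. Over all 243 tested microRNA rows 32.1% were called higher and 15.6% lower. MIRLET7D had the most reads, 19 in each control and 6 and 5 with GNE987, or 9.49 and 9.87 FPKM against 8.25 and 6.51, and was not called. Fragments this short are largely lost in a library built for long RNA, and which of these reads belong to the host transcript was not tested.

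Host genes lie close to or across other genes, and the strand of the reads is not stated in the sources used here, so overlapping genes may have shared reads. Of the 20 tested host genes, 14 had a tested protein-coding gene overlapping them or within 10 kb, 22 such genes in all, of which 7 were higher, 8 lower and 7 not called with GNE987. These are 31.8% higher and 36.4% lower, near the 24% and 31.7% of all tested protein-coding genes. In 10 pairs both the host gene and its neighbour were called, 4 in the same direction and 6 in opposite directions.

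**Figure D3:**
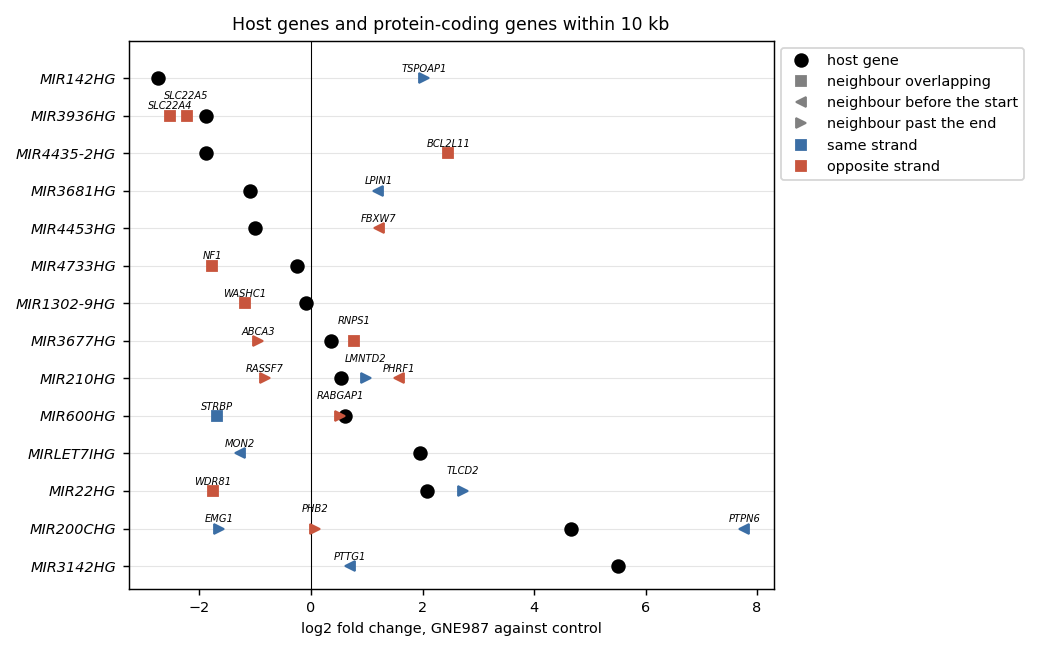
The log2 fold change, GNE987 against control, of each tested host gene with a tested protein-coding neighbour (black circle) and of those neighbours (squares where they overlap, triangles where they lie before the start or past the end within 10 kb; blue for the same strand, red for the opposite strand). MIR142HG and MIR4435-2HG were lower beside TSPOAP1 and BCL2L11, which were higher.

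In the opposite direction, MIR4435-2HG overlaps BCL2L11, which codes for the pro-apoptotic protein BIM on the opposite strand and shares 727 exon bases with it. BCL2L11 was at 6.10 and 6.63 FPKM in controls and at 36.0 and 35.0 with GNE987 (log2 fold change 2.46, SE 0.07, adjusted p = 0.00015), while MIR4435-2HG was lower. MIR142HG ends 2.08 kb before TSPOAP1 on the same strand, and TSPOAP1 was at 2.94 and 3.28 FPKM in controls and at 12.6 and 13.3 with GNE987 (log2 fold change 2.02, adjusted p = 0.00028). Scaled to GAPDH, TSPOAP1 had a log2 fold change of 0.20 and BCL2L11 of 0.62, both under the fold threshold, so neither was called there. With the read total they were 1.23 and 1.66.

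The other opposite pairs were MIR22HG, higher, with WDR81, lower (5.80 and 6.42 FPKM against 1.98 and 1.52), MIRLET7IHG, higher, with MON2, lower (2.84 and 3.17 FPKM against 1.25 and 1.13), MIR200CHG, higher, with EMG1, lower (8.52 and 8.0 FPKM against 2.39 and 2.77), and MIR3681HG, lower, with LPIN1, higher (4.33 and 4.38 FPKM against 10.5 and 9.86). LPIN1 turned to a log2 fold change of -0.62 when scaled to GAPDH.

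In the same direction, MIR200CHG lies 1.91 kb past PTPN6, the gene of the phosphatase SHP-1 that restrains cytokine receptor signalling in blood cells. PTPN6 was at 0.156 and 0.199 FPKM in controls and at 60.4 and 60.1 with GNE987, and at 2529 and 2657 reads there its transcript was far above the 6 and 9 reads of MIR200CHG. Whether the reads of MIR200CHG come from transcripts that start at PTPN6 was not tested. MIR22HG lies 1.07 kb before TLCD2, which was at 0.211 and 0.326 FPKM in controls and at 2.24 and 2.39 with GNE987. MIR3936HG overlaps SLC22A4 and SLC22A5, genes of carnitine and organic cation transporters on the opposite strand. SLC22A4 was at 2.07 and 2.27 FPKM in controls and at 0.400 and 0.211 with GNE987, and SLC22A5 at 0.924 and 1.04 against 0.168 and 0.0975.

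MIR17HG and MIR223HG had no tested protein-coding neighbour within 10 kb: GPC5, past the end of MIR17HG, had at most 2 reads in a library, and VSIG4, past the end of MIR223HG, had 8 and 13 reads in controls and none with GNE987.

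Promoter sequence, from 250 bases before to 50 bases after the start, was found in RefSeq (GRCh38.p14) for 18 of the 20 tested host genes. The letters CACGTG, the E-box that MYC and MAX bind, were in 1 of the 18, MIR142HG, and in 7.26% of all 35116 promoters. The letters GGGCGG, the GC-box of SP1, were in 12 of the 18 and in 45% of all promoters. The CRE letters TGACGTCA were in 1, MIR4733HG (1.85% of all), the TATA letters TATAAA in 1, MIR7-3HG (11.5%), and the GATA letters AGATAA in none (10.3%). The κB letters GGACTTTCC, searched after the sequence of the MIR3142HG promoter had been seen, were there and in 0.37% of all promoters. Each motif was searched on both strands, and none of these motifs contains another.

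The promoters of MIR3142HG and MIR142HG are shown because they belong to a host gene of blood microRNAs that was higher and to 1 that was lower, with the κB letters, and the E-box and GC-box letters on either strand, in capitals. The MIR3142HG window is the start given by RefSeq, which lies inside the gene as GENCODE 44 draws it.
MIR3142HG (chr5:160468001-160468300, plus strand): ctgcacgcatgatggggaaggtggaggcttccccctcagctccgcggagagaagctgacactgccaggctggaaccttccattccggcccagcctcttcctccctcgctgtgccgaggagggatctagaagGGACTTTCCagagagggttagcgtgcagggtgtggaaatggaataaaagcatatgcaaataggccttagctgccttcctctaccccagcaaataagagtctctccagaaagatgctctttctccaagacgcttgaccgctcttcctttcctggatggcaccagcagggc
MIR142HG (chr17:58332471-58332770, minus strand): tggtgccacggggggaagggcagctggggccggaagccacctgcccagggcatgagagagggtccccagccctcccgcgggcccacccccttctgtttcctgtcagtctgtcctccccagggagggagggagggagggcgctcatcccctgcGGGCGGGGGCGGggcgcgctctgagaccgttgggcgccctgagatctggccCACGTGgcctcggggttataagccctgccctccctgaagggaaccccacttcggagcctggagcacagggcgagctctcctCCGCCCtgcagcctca
A match of letters is a description of the window and not a bound site.

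The genes that process and use microRNAs were tested as a list of 40, all of them above the minimum. The list was chosen with earlier results of these data known, so its shares describe these 40 genes and are no test of the pathway. Of the 40, 20 were lower, 4 higher and 16 not called, with a median log2 fold change of -0.94. Of all tested genes 24.9% were lower and 33.6% higher, and among protein-coding genes 31.7% were lower and 24% higher, with a median of -0.29. Each of the 3 other scalings moved the median of all genes down, so the 20 lower genes, which kept their sign, could hardly have turned. Of the 4 higher genes TARBP2, KHSRP and PAN2 turned to negative values when scaled to GAPDH.

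**Figure D4:**
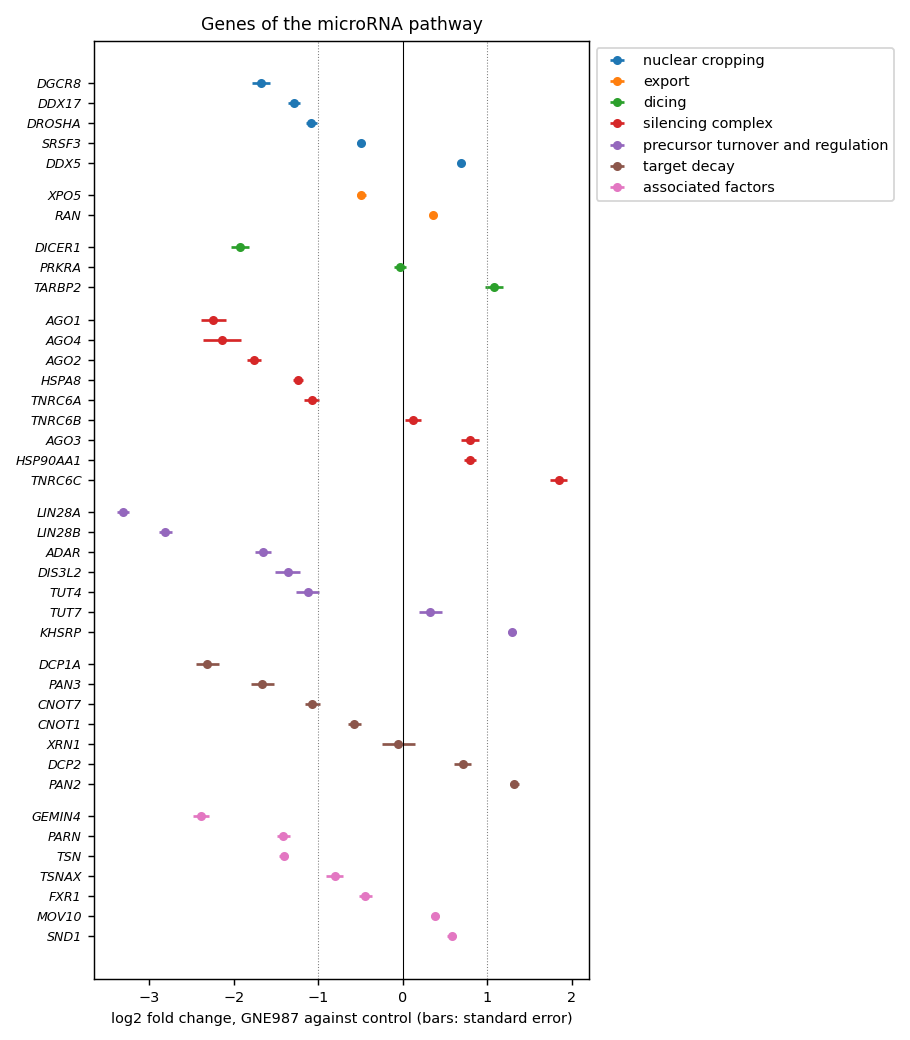
The log2 fold change, GNE987 against control, with its standard error, of the 40 genes that process and use microRNAs, grouped by step. Dotted lines mark folds of 2 and 0.5; LIN28A at -3.32 and LIN28B at -2.81 were the lowest, and TNRC6C at 1.84 the highest.

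In the nucleus, 3 of 5 cropping genes were lower. DROSHA, the nuclease, was at 9.16 and 9.31 FPKM in controls and at 4.43 and 4.19 with GNE987, and its partner DGCR8 was at 18.7 and 19.0 against 6.38 and 5.31. The 2 export genes were not called. DICER1, the nuclease that cuts the hairpin, was at 4.30 and 4.70 FPKM in controls and at 1.11 in both GNE987 libraries, while its partner TARBP2 was higher, at 8.96 and 7.55 against 17.3 and 17.7 FPKM.

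Of the 9 silencing complex genes 5 were lower and 1 higher. AGO1 was at 10.9 and 11.2 FPKM in controls and at 2.58 and 1.97 with GNE987, AGO2, the Argonaute that cuts its targets, at 13.7 and 15.3 against 4.12 and 4.24, and AGO4 at 2.05 and 2.41 against 0.362 and 0.499. AGO3 was at 2.14 and 2.41 against 4.03 and 3.98 FPKM and was not called. TNRC6C, a scaffold that joins Argonaute to the deadenylases, was higher, at 1.44 and 1.57 FPKM in controls and at 5.68 and 5.62 with GNE987. Of the 7 target decay genes 3 were lower and 1 higher, and of the 7 associated factors 3 were lower.

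Of the 7 genes that act on precursors 5 were lower and 1 higher. LIN28A, which binds let-7 precursors and blocks their maturation, was at 45.4 and 49.7 FPKM in controls and at 4.60 and 4.75 with GNE987 (log2 fold change -3.32, adjusted p = 0.00012), and its paralogue LIN28B was at 17.6 and 19.0 FPKM against 2.57 and 2.47 (-2.81, adjusted p = 0.00015). TUT4 and DIS3L2, which add uridines to and degrade precursors held by LIN28, were lower as well (log2 fold changes -1.13 and -1.36), whereas KHSRP, which binds the let-7 loop and aids its maturation, was higher (1.29 as deposited and -0.56 scaled to GAPDH).

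LIN28 recognises the letters GGAG in the loop end of let-7 hairpins. They were found in 9 of the 11 let-7 hairpins in RefSeq, searched on the RNA strand, and in 43.4% of all 1562 human hairpins. The hairpins of the tested let-7 host genes each held them once, and those of MIRLET7BHG, let-7a-3 and let-7b, did not. The hairpin of let-7i, whose host gene was higher, is shown with 1 from MIRLET7A1HG and 1 without the letters, with GGAG in capitals.
let-7i (MIRLET7IHG): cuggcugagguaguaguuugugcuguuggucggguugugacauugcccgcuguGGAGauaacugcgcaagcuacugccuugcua
let-7d (MIRLET7A1HG): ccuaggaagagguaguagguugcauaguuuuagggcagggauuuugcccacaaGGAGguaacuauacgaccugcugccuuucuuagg
let-7b (MIRLET7BHG): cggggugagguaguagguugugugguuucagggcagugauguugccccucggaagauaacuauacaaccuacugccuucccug
Levels of mature let-7 were not measured, so these values give the host genes and the LIN28 genes side by side and no more.

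MicroRNAs also lie inside genes that are not named for them. Of the 605 tested protein-coding genes that hold an annotated microRNA, 18.8% were higher and 32.4% lower, beside 24.3% and 31.7% of the 10391 that hold none. Of the 24 other long noncoding RNA genes that hold 1, 58.3% were higher and 8.33% lower, beside 51.4% and 13.7% of those without. The 5 protein-coding holders with the lowest log2 fold changes were KCNK1 (-4.54), PMP22 (-3.90), RNF220 (-3.44), TOMM40L (-3.30) and RGS19 (-3.18), and the 5 with the highest were H2BC26 (7.37), MAP7D2 (7.28), NUP210L (6.97), ESRP2 (5.20) and CPE (5.16). All 5 of the highest had a control mean under 0.5 FPKM. Of the 5 lowest, all but TOMM40L had a GNE987 mean under 0.5 FPKM. The size of these log2 fold changes therefore depends on the pseudocount.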

How the data were processed

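RNA of 2 control and 2 GNE987 libraries was sequenced after Trizol extraction and an Illumina TruSeq RNA kit; the submitters' processing notes name HISAT2 2.0.5 and hg38. The deposited FPKM table is the authors' own; the counting program, annotation and strand setting are not given in the sources used here. Median-ratio divisors of the 4 deposited libraries were equal, so the FPKM values already carry such a scaling. Reads were recovered as the smallest whole numbers that give the FPKM steps, 50.6% of genes above 0 at the GENCODE 44 exon length and the rest at another length, so they are lower bounds on depth, and intervals and floors cover counting error only.

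The 16668 genes averaging 0.5 FPKM or more were fitted with limma 3.58.1 (R 4.3.3) on log2(FPKM + 0.1) with an intensity trend, two-sided, with Benjamini-Hochberg adjustment over all of them; a fold change understates the change of low genes. The fit was also run on simulated data with known changes, whose result is not given here. Genes with few reads were not changed in it. Alternatives changed the pseudocount, filter, scaling, test, threshold, replicate block and libraries. Named are every tested host gene, those under the minimum with at least 10 reads in both libraries of a group or in the rule, and fixed lists of pathway, marker and neighbouring genes (within 10 kb). The members and lists were chosen with earlier results of these data known. Precursor hairpins, mature microRNAs and promoters came from RefSeq.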

Additional observations from a re-analysis of the deposited data

How the results depend on the processing

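With 2 libraries per group, the counts of 5 host genes higher and 6 lower moved to 9 and 10 with no filter and to 3 and 12 when scaled to GAPDH, and stayed at 4 or 5 and 4 to 8 otherwise; leaving out each library in turn gave 4 to 5 higher and 4 to 6 lower. Each such fit assumes that the lone library of a group varies like the other group. The microRNA pathway counts of 4 higher and 20 lower moved to 0 and 36 with GAPDH. They were 1 and 25 with the read total, 3 and 21 with quantile normalization, and 4 and 15 with a pseudocount of 1. The precursor counts of 1 higher and 1 lower rest on few reads: lower moved to 3 with GAPDH, to 2 with the read total and to 2 with the replicate block, higher moved to 2 with limma-voom on recovered reads, and leaving out a library gave 1 to 2 of each. Same-numbered libraries did not deviate together (correlation 0.0054 across genes). With 2 libraries per group this cannot show whether they shared a culture or a day, which the labels do not give. The replicate block left the counts of host genes at 5 and 6 and of pathway genes at 4 and 20. Over all genes the split of 5602 higher and 4148 lower became 3031 and 9738 with GAPDH, 4147 and 6724 with the read total and 4235 and 5464 with quantile normalization.

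The sign of host genes near 0 turned. With GAPDH the log2 fold changes were -1.62 for MIR3667HG, -1.54 for MIR503HG, -1.40 for MIR3677HG, -1.18 for MIRLET7A1HG, -0.99 for MIR210HG and -1.21 for MIR600HG. With quantile normalization they were -0.57, -0.53, -0.076, -1.14 and -1.31 for the first 5, and with the read total -0.65, -0.57, -0.41, -0.31, -0.13 and -0.18 for the 6. Leaving out each library in turn, the log2 fold change ranged from -0.21 to 0.94 for MIRLET7A1HG (-0.046 without control replicate 1), from -1.18 to 0.69 for MIR4733HG (0.28 without control replicate 2), from -0.28 to 0.10 for MIR1302-9HG, from -0.039 to 1.10 for MIR210HG and from -0.090 to 0.45 for MIR503HG. With a pseudocount of 1, MIR3936HG (-0.66), MIR3681HG (-0.57) and MIRLET7IHG (0.95) lost their calls. The causes of these shifts were not tested.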
